A study of Mus musculus with 18 samples.

Results

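The replication-dependent histone genes of mouse embryonic stem cells (mESCs) were followed across knockdowns of the cohesin subunit gene *Stag1*. All rows of the deposited expression table whose symbol starts with Hist1h, Hist2h, Hist3h or Hist4h were taken, which gave 59 of 18659 genes. They comprised 6 genes of the linker histone H1, 14 of H2A, 17 of H2B, 10 of H3 and 12 of H4. In all, 49 lie in the Hist1 cluster on chromosome 13, 6 in Hist2 on chromosome 3, 3 in Hist3 on chromosome 11 and 1, *Hist4h4*, on chromosome 6. All 59 had reads in every library except *Hist2h2be*, which had 0 in SP 1a, and all 59 passed the filter on low values in every fitted comparison.

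The cells were E14 mESCs, a male line, grown in serum (FCS) with LIF, and every siRNA was applied for 24 h. Set 1 held 1 library of scrambled siRNA (scr) and 3 of the SmartPool (SP) against *Stag1*, named 1a, 1b and 1c. Sets 2 and 3 each held 1 library of scr, of SP, of siRNAs to the 3′ end (3p) and to the 5′ end (5p) of *Stag1*, and of an enzymatically prepared siRNA to the 5′ UTR of the upstream SATS start site (SATS). Set 2 also held untreated cells and set 3 cells with luciferase siRNA (Luc). The study names its luciferase control esiLuc, enzymatically prepared as SATS was, while scr was a catalogue siRNA. SATS against scr therefore also compares types of reagent, and the part of this was not tested. The study calls its replicate libraries independent, but whether the sets were separate cultures was not given in the sources used here, so p-values measure the spread between these samples. All comparisons of a set use the same scr library. In such bulk samples, fewer cells in a given phase and less RNA per cell cannot be told apart.

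Replication-dependent histone genes supply the histones that package newly made DNA, and their mRNAs are abundant in S phase. They have few or no introns, and their mRNAs end in a conserved stem-loop bound by SLBP in place of a poly(A) tail. NPAT at the histone locus body drives their transcription. H2A, H2B, H3 and H4 build the nucleosome core and H1 binds the DNA that enters and leaves it. Since the libraries were made by rRNA depletion and not by poly(A) selection, such mRNAs are kept. The genes are short and come in near-identical copies, which limits how far reads can be given to 1 copy.

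The stem-loop is shown first because it is what sets these mRNAs apart. The 16 letters of the stem-loop were searched in 1 GENCODE M21 transcript of each gene (GRCm38, the build of the files), as a stem that opens with GG and closes with CC around a loop of 4 letters. They were found in 37 of the 59 transcripts, in 4 of 6 H1, 7 of 14 H2A, 10 of 17 H2B, 6 of 10 H3 and 10 of 12 H4 genes. Of the 22 transcripts without them, 13 were shorter than 420 bases. The stem-loop letters are in capitals below, with 5 bases on either side, for the Hist1 members called later and for 1 member of each other form of the stem.
Hist1h2ab: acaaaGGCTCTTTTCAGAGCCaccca
Hist1h2bb: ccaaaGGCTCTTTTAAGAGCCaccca
Hist1h3b: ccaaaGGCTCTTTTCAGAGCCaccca
Hist1h4d: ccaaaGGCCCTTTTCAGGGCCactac
Hist1h4b: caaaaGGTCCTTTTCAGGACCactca
Hist1h4i: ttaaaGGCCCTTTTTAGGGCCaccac
Hist2h2ac: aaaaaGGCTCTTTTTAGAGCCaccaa
The capitals lie at chr13:23751572-23751587, chr13:23747203-23747218, chr13:23752820-23752835, chr13:23581950-23581965 and chr13:23757366-23757381 on the plus strand, and at chr13:22040966-22040981 and chr3:96220418-96220433 on the minus strand. The form with the loop seen in *Hist1h2ab* was shared by 20 genes of H1, H2A, H2B and H3. The form of *Hist1h2bb* was found in 6 genes of H1, H2B and H3, and the form of *Hist1h4d* in 6 H4 genes. In 20 of the 37 transcripts the annotated end lay over 100 bases past the stem-loop, and in 16 it lay within 60 bases. With SATS siRNA the median log2 fold change was 0.27 over the 17 members with at most 100 bases after the stem-loop, 0.25 over the 20 with more, and 0.28 over the 22 with no stem-loop letters.

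Promoters were read from RefSeq (GRCm38.p6), from 250 bases before to 50 bases after the gene start, for the 53 members that had one. The octamer ATTTGCAT, in either direction, was found in 7 of 14 H2A and 6 of 14 H2B promoters and in 0 of the 6 H1, 8 H3 and 11 H4 promoters, against 1.75% of 27025 promoters of all genes. CCAAT stood in 45 of 53 members (84.9%) against 37.9% of all promoters, and TATAAA in 33 of 53 (62.3%) against 14.2%. CCAAT was in all 6 H1, 14 H2A, 14 H2B and 8 H3 promoters and in 3 of 11 H4 promoters. Both strands were searched for each motif, and matches of different motifs could overlap. A match describes the letters alone. For *Hist3h2bb-ps*, an H2B member called below, no octamer window was found. The octamer is in capitals in these windows of 30 bases, each in the direction of its gene. They are from the most highly measured H2B gene, from *Hist1h2bb* and *Hist1h2ab*, called below, and from 1 pair of genes diverging from the same stretch.
Hist2h2bb: tgtgaaacctcATTTGCATacaagctctat
Hist1h2bb: ttgagtctcttATTTGCATaaagcctttga
Hist1h2ab: tgcaggcctttATGCAAATgaggagctcaa
Hist1h2bg: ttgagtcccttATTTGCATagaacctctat
Hist1h2ae: atagaggttctATGCAAATaagggactcaa
They lie at chr3:96269641-96269670, chr13:23746633-23746662 and chr13:23750948-23750977 on the plus strand and, for the divergent pair, at chr13:23571330-23571359, read on the plus strand for *Hist1h2bg* and on the minus strand for *Hist1h2ae*. The H2A genes carry the octamer in the reverse direction. In the SATS comparison the median log2 fold change was 0.27 over the 13 members with an octamer. It was 0.31 over the other 18 H2A and H2B members, among them the H2B members that had no promoter to search.

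The deposited value of a gene is its reads divided by a size factor of the library. Set 1 was shallow, with 9023224 to 14040830 reads on genes per library, against 32137666 to 45660840 in the other 12 libraries. The ribosomal RNA gene *Rn45s* accounted for 69.2% to 79.1% of them in set 1 and for 14.7% to 23.9% elsewhere, so 1 read was worth a value of 3.22 to 8.05 in set 1 and 0.353 to 0.479 elsewhere. Histone reads numbered 10560 to 28271 in set 1 and 167234 to 283147 in sets 2 and 3. *Stag1* was at 29.8% of scr with SP in set 1. In sets 2 and 3 it was at 21.6% and 17.5% with SP, 20.9% and 17.3% with 3p, 23.5% and 18.98% with 5p, and 50.5% and 49.7% with SATS. The 8 embryonic stem cell markers were detected in every library and had a summed value of 30117 to 64140 over the 16 libraries. Primitive endoderm markers summed to 80.5 to 415 and trophectoderm markers to 61.1 to 721. Fibroblast markers summed to 116 to 467 in set 1, 2614 to 5754 in set 2 and 379 to 576 in set 3, with *Col1a1* the highest of them in sets 2 and 3 and *Dcn* at most 8.05. The part of these other markers in the results below was not tested.

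Histone mRNA was measured at high level in every library, and in nearly the same proportions of the histone types. The 59 genes took 0.598% to 0.823% of the reads outside *Rn45s* and *Lars2*. H1 made up 27.5% to 30.3% of the summed histone value over the 16 libraries, H4 24.5% to 27.2%, H2B 19.8% to 22.7%, H3 14.7% to 17.8% and H2A 7.79% to 8.84%. These shares are on the scale of reads, and H1 mRNAs are the longest of the types. The 10 highest members held 57.1% of the value over sets 2 and 3. A median value over 1000 was found for 26 members and one under 100 for 7.

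**Figure D1:**
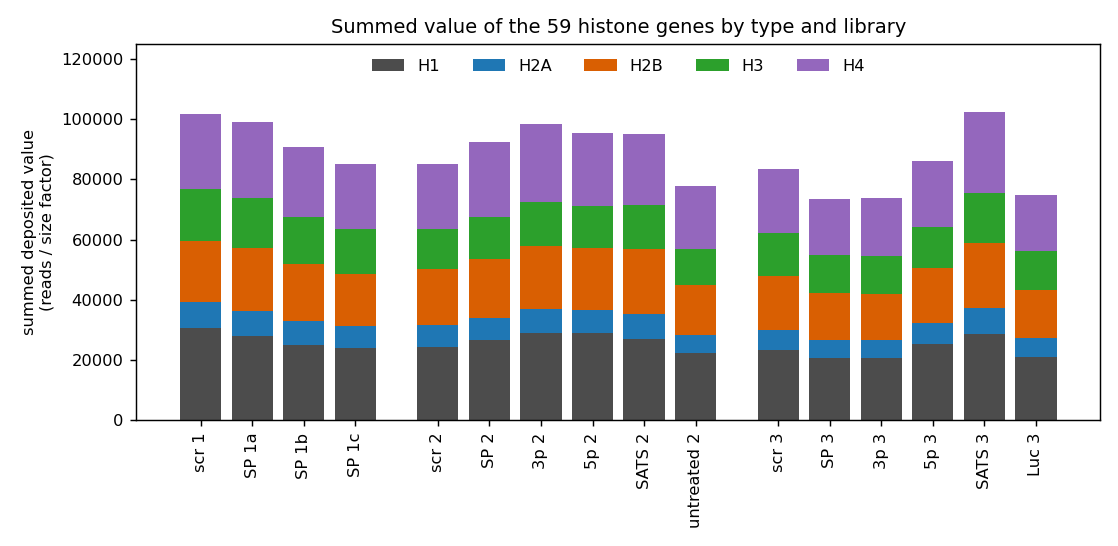
Summed deposited value (reads divided by the size factor) of the 59 histone genes in each of the 16 libraries, stacked by histone type, with the libraries of sets 1, 2 and 3 apart. The sum ranged from 73564 in the SP library of set 3 to 102242 in the SATS library of set 3, and the types kept nearly the same shares.

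Among H1 genes, *Hist1h1a*, *Hist1h1c* and *Hist1h1d* were highest. *Hist1h1a* ranged from 4557 to 6655 over the 12 libraries of sets 2 and 3, with a median of 5758. *Hist1h1c* ranged from 4074 in Luc to 7215 in SATS of set 3, with a median of 5095. *Hist1h1d* ranged from 4391 to 6084 in those libraries, and in set 1 scr (7869), SP 1a (7568) and SP 1b (6319.6) stood above them and SP 1c did not. The testis variant *Hist1h1t* was the lowest H1 gene, with a median of 42.5.

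Among H2B genes, *Hist2h2bb* had the highest value of all members. It ranged from 7082 in 3p of set 3 to 10527 in SATS of set 3, with a median of 8988, and it held 47.9% of the H2B value. GENCODE places *Gm20628* and *Gm42743* over it, so its reads may come in part from those models. *Hist1h2be* (1255 to 1773) and *Hist1h2bg* (1108 to 1747) followed. *Hist2h2be* was the lowest member, at 6.29 to 17.0 in sets 2 and 3. In set 1 it had 8 reads in scr, 0 in SP 1a, 4 in SP 1b and 2 in SP 1c, where 3 reads stood for values of 9.65 to 24.2, so that it could not be compared there.

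Among H4 genes, *Hist1h4d* (4172 to 5759), *Hist1h4f* (3250.1 to 4516) and *Hist1h4h* (2163 to 3522) were highest in sets 2 and 3. Among H3 genes, *Hist1h3e* (3971 to 5456) stood above *Hist1h3f* (1389 to 2479) and *Hist1h3g* (1382 to 1912), whose ranges overlapped. Among H2A genes, *Hist3h2a* (1611 to 2546) and *Hist1h2ak* (1169 to 2397) overlapped too, and *Hist1h2ae* (501 to 866) lay below both. Of the 12 libraries, SATS of set 3 was the highest for 20 of the 59 members, *Hist1h3e*, *Hist1h3f* and *Hist1h4h* among them, and SATS of set 2 for 13, with *Hist1h2ak* and *Hist1h2ae* among these.

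Per kilobase of RefSeq gene, the median value over sets 2 and 3 was 6279 for H1, 3150 for H4, 2354 for H3, 1349 for H2B and 640 for H2A. Members whose RefSeq span exceeds 3000 bases were left out, which left 56. *Hist2h2bb* had the highest value per kilobase, 18048, followed by *Hist1h4d* at 12444. How many of a gene's 75-base stretches recur in other genes, a read length in these libraries, bears on which copy a read is given to. Of the 59 genes, 52 shared at least 1 such stretch with a gene elsewhere and 20 shared over 50% of them. The median share was 0.735% in H1, 44.9% in H2A, 33.2% in H2B, 52.3% in H3 and 23.5% in H4. The median value per kilobase was 999 over 19 members with over 50% shared and 2953 over the other 37. Across these 56 genes, which are not independent, the Spearman correlation of share and value per kilobase was -0.26. Values of single copies in the families with shared stretches are therefore uncertain, and 19 members are also overlapped by another gene model.

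SP siRNA, with *Stag1* below scr in all 3 sets, gave no histone gene past the threshold. The summed value was 90092 ± 10098 in scr and 85929 ± 10716 in SP (SD, n = 3 each, with the 3 SP libraries of set 1 averaged). Over the 3 sets, 0 of 59 members were called by limma at an adjusted p under 0.05 (log2(value + 1)), against 0% of 15970 genes. The unadjusted p was under 0.05 for 0 members without the set as a block and 2 with it, against 0.526% and 5.85% of genes. With the block 0 were called, against 0% of genes. By edgeR and by DESeq2 0 were called too. The log2 fold changes ran from -0.65 to 0.63 with a median of -0.05. By sign, 43 members were negative, with all 6 H1 genes among them.

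In sets 2 and 3 alone, SP gave 0 called members again, without or with the block, against 0.00606% and 0.746% of 16490 genes. Without or with the block, 0 members had an unadjusted p under 0.05, against 2.49% and 12.5% of genes. By edgeR or DESeq2 0 were called, and the median log2 fold change was -0.04. The sets went opposite ways. In set 2, 41 of 59 members were above scr with a median log2 ratio of 0.08, while in set 3, 53 were below with a median of -0.17. In set 1, 40 were below with a median of -0.13. For 37 members the SP library was above scr in set 2 and below it in set 3. *Hist1h4f*, for example, was 4516 with SP and 3823 with scr in set 2, and 3282 and 3640.3 in set 3.

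The 3p siRNA showed this reversal for nearly all members. In set 2, 56 of 59 were above scr, with a median log2 ratio of 0.26 and a summed value 1.16 times that of scr. In set 3, 57 were below, with a median of -0.15 and a summed value 0.883 times that of scr. For 54 members the library was above scr in set 2 and below it in set 3, and 2 were above in both. *Hist1h1d* was 6079 with 3p and 4758 with scr in set 2, and 4391 and 4830.3 in set 3. Over all genes, 47.4% and 49.8% were above scr in these sets. In the fit over both sets, 0 members were called without or with the block, against 0.00606% and 0.285% of genes. At an unadjusted p under 0.05 there were 0 without the block and 4 with it, against 1.73% and 10.4% of genes. By edgeR and by DESeq2 0 were called, and the median log2 fold change was 0.06.

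With the 5p siRNA the summed value was above scr in both sets, by little in set 3. In set 2, 54 members were above scr (median log2 ratio 0.28, summed value 1.12 times that of scr), and in set 3, 30 were above (median 0.001, summed value 1.03 times). The fit had 50 of 59 positive and a median of 0.13, beside 0.01 over all genes. All 6 H1 genes were positive in both sets. No member was called without or with the block (0 of 59, against 0.0121% and 2.37% of genes). At an unadjusted p under 0.05 there were 0 without the block and 4 with it, against 3.63% and 15.7% of genes. By edgeR or DESeq2 0 were called. Of the most abundant members, *Hist1h1c* was 6117 with 5p against 5053 with scr in set 2 and 5137 against 4483 in set 3 (log2 fold change 0.24, SE 0.14 with the block, limma adjusted p = 0.44).

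Between 5p and 3p, 39 members were positive and 0 were called without or with the block, against 0% and 3.26% of genes. Before adjustment, 1 member without the block and 6 with it had a p under 0.05, against 4.09% and 15.8% of genes. Both edgeR and DESeq2 called 0. All 6 H1 genes had positive fitted log2 fold changes, 0.08 to 0.72, and 0 were called. In set 3 each was above 3p with 5p, while in set 2 *Hist1h1b*, *Hist1h1c* and *Hist1h1d* were below it (6117 with 5p and 6313 with 3p for *Hist1h1c*).

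**Figure D2:**
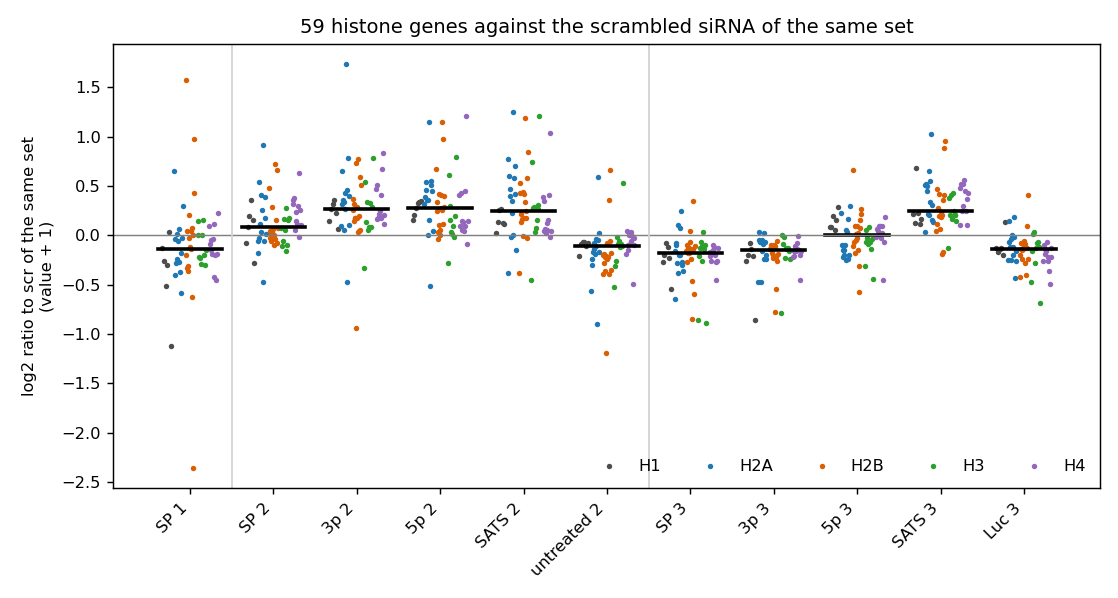
Log2 ratio of each of the 59 histone genes (points, coloured by type) to the scr library of its own set, on value + 1, with the median as a black bar. The panel shows SP of set 1 (libraries averaged), then set 2, then set 3. The medians with 3p were 0.26 in set 2 and -0.15 in set 3, and those with SATS were 0.25 in both sets.

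With SATS siRNA most histone genes were above scr in both sets. In set 2, 51 of 59 members were above scr and in set 3, 56, with medians of 0.25 and 0.25. In 49 members both sets were above, which held for 29 members with 5p, 4 with SP and 2 with 3p, all against the same scr libraries. Over all genes, 50.02% and 49.91% were above. The summed value was 95134 against 85165 in set 2 and 102242 against 83404 in set 3, 1.12 and 1.23 times. The fit gave 55 positive members with a median log2 fold change of 0.27, beside -0.004 over all genes, and by type the medians were 0.13 in H1, 0.43 in H2A, 0.27 in H2B, 0.25 in H3 and 0.30 in H4. All 6 H1 and all 12 H4 genes were positive.

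Without the block, limma called 0 of the 59 at an adjusted p under 0.05, against 0% of 16490 genes. An unadjusted p under 0.05 was found for 5 members, against 3.94% of genes. By edgeR and DESeq2 without the block 0 were called as well. With the set as a block, 4 were called higher and 0 lower, or 4 of 59 against 2.64% of all genes (1.9% higher and 0.746% lower). At an unadjusted p under 0.05 there were 34 members with the block, against 18.8% of genes. The called members were *Hist1h2ab*, *Hist1h2bb*, *Hist1h3b* and the pseudogene *Hist3h2bb-ps*. Just outside the threshold lay *Hist1h2an*, with a log2 fold change of 0.80 (SE 0.20, limma adjusted p = 0.0518). In set 2 it was 75.8 with SATS, 50.3 in scr, 48.4 in SP, 69.8 in 3p, 74.0 in 5p and 76.2 in untreated cells. Untreated cells thus stood above SATS in that set. In set 3 it was 137 with SATS, 67 in scr, 79.8 in SP, 68.3 in 3p, 75.4 in 5p and 76.1 in Luc.

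*Hist1h2ab*, a core H2A gene, was 503 with SATS in set 2. It was 294 in scr, 259.6 in SP, 367 in 3p, 386 in 5p and 239 in untreated cells of that set. In set 3 it was 485 with SATS, 339.9 in scr, 305 in SP, 329 in 3p, 317 in 5p and 325 in Luc. SATS was the highest library of each set, and the SATS libraries did not overlap with the other 10 of sets 2 and 3. The log2 fold change against scr was 0.64 (SE 0.12, adjusted p = 0.0211 by limma with the block).

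*Hist1h2bb*, an H2B gene, was 1336 with SATS in set 2, where scr was 924, SP 904, 3p 1195, 5p 1168 and untreated cells 805. In set 3 it was 1081 with SATS, where scr was 779, SP 646, 3p 709, 5p 724 and Luc 676. SATS was highest within each set, but 3p and 5p of set 2 exceeded SATS of set 3. The log2 fold change was 0.50 (SE 0.11, adjusted p = 0.0356 by limma with the block).

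*Hist1h3b*, an H3 gene, was 421 with SATS in set 2, where scr was 252, SP 234, 3p 365, 5p 386 and untreated cells 202. In set 3 it was 444 with SATS, where scr was 341, SP 295, 3p 340.5, 5p 355 and Luc 304. The SATS libraries stood above the other 10 of sets 2 and 3. The log2 fold change was 0.56 (SE 0.13, adjusted p = 0.0372 by limma with the block). In a fit without the block that left out scr of set 2, it was 0.34. That fit sets SATS of both sets against scr of set 3 alone. Against scr of its own set, the log2 ratio was 0.74 in set 2 and 0.38 in set 3.

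*Hist3h2bb-ps*, a processed pseudogene of H2B in the Hist3 cluster, was 111 with SATS in set 2, where scr was 61.7, SP 65.1, 3p 88.5, 5p 81.6 and untreated cells 48.2. In set 3 it was 68.6 with SATS, where scr was 34.9, SP 32.3, 3p 30.4, 5p 42.1 and Luc 46.6. SATS was highest within each set and the sets overlapped. The log2 fold change was 0.90 (SE 0.19, adjusted p = 0.0284 by limma with the block). In fits without the block, it was 0.55 when SATS of set 2 was left out and 0.50 when scr of set 3 was. Such fits mix in the difference between sets. Against scr of its own set, the log2 ratio was 0.84 in set 2 and 0.95 in set 3.

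**Figure D3:**
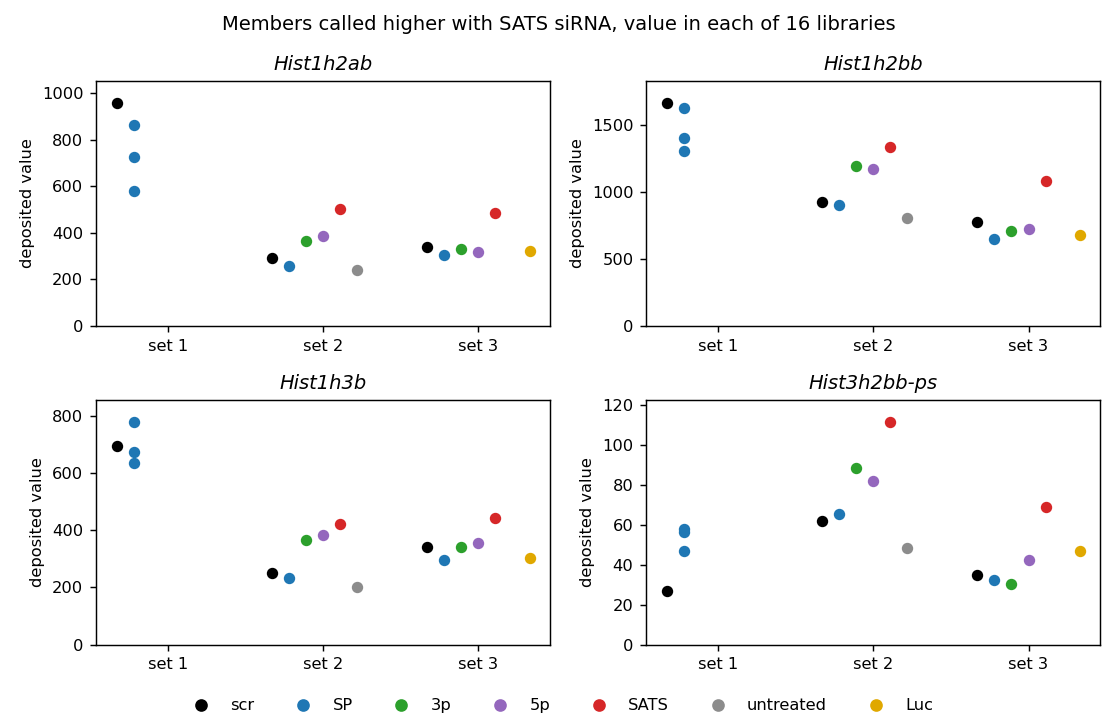
Deposited value of the 4 members called higher with SATS siRNA in each of the 16 libraries, by set (x axis) and siRNA (colour). SATS is the highest library of its set in each panel, and for Hist1h2ab, Hist1h2bb and Hist1h3b the libraries of set 1 lie above most or all of the others.

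*Hist1h2bb*, *Hist1h2ab* and *Hist1h3b* are neighbours, at positions 41 to 43 of the 49 Hist1 genes in order along chromosome 13. They lie at chr13:23746734-23747241, chr13:23751126-23751598 and chr13:23752267-23752886, all on the plus strand and each with 1 exon. That they adjoin was seen after the calls were known. The flanking *Hist1h3c* had a log2 fold change of 0.24 (SE 0.08, limma adjusted p = 0.111 with the block) and *Hist1h4b* one of 0.08. Shared 75-base stretches made up 55.4% of *Hist1h2ab*, 36.6% of *Hist1h2bb*, 58.6% of *Hist1h3b* and 19.2% of *Hist3h2bb-ps*.

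**Figure D4:**
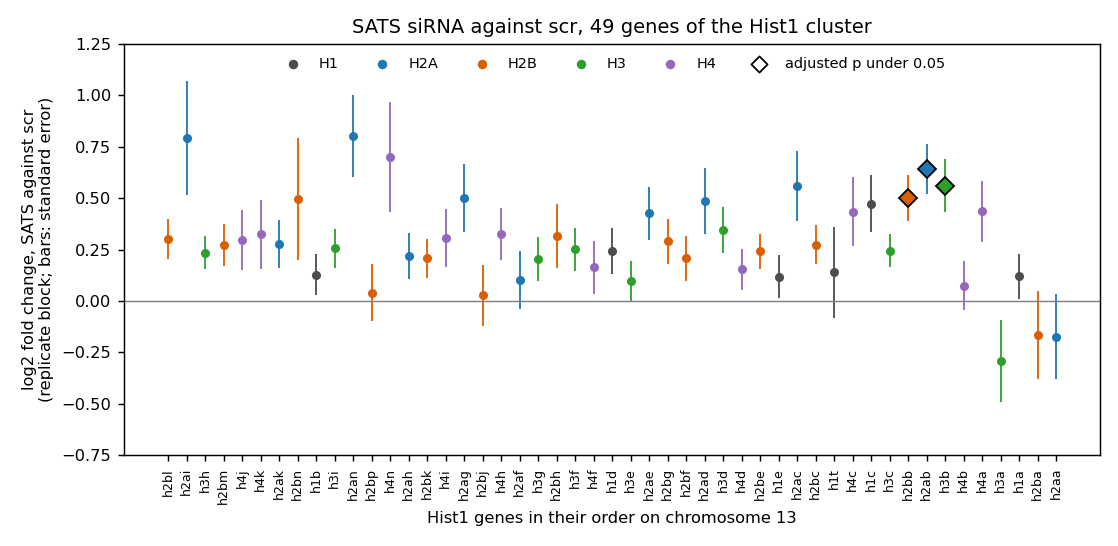
Log2 fold change of SATS against scr, fitted with the set as a block, for the 49 Hist1 genes in their order on chromosome 13, coloured by type. Bars are standard errors and diamonds mark an adjusted p under 0.05, which are Hist1h2bb, Hist1h2ab and Hist1h3b side by side.

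None of the 3 most abundant members of each type was called. *Hist1h1c* was 6046 with SATS and 5053 with scr in set 2, and 7215 and 4483 in set 3 (log2 fold change 0.47, limma adjusted p = 0.0841 with the block). *Hist2h2bb* was 9948 against 8824 in set 2 and 10527 against 8227 in set 3 (0.26, adjusted p = 0.249). *Hist1h4d* was 5304 against 5082 and 5605 against 4725 (0.15, adjusted p = 0.438). *Hist3h2a* had a log2 fold change of -0.004, with 1686 against 1864 in set 2 and 2277 against 2069.8 in set 3.

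Other measures stood apart in some of these libraries. *Lars2*, which held 3.68% to 4.14% of reads in set 1, had a value of 2513 in 3p, 1914 in 5p and 3559 in SATS of set 2, and 357 to 728 in the other 9 libraries of sets 2 and 3. In set 3 its value was 564 with SATS and 622 with scr. The fibroblast markers summed to 3686 with SATS and 2904 with scr in set 2, and to 555 and 576 in set 3, and 0 of 6 were called with the block. Of 3 trophectoderm markers tested, *Krt7* was called higher with SATS (log2 fold change 0.64, limma adjusted p = 0.0203 with the block, 0 called without it), while *Cdx2* and *Eomes* were negative and not called (list median -0.14). With 5p, 1 of the 6 fibroblast markers, *Col1a1*, was called lower (-0.75, limma adjusted p = 0.0255 with the block, 0 called without it), while 4 of the 6 were positive (list median 0.05). Untreated cells had the highest fibroblast sum, 5754, and 51 of 59 members below scr. The part of *Lars2* and of these markers in the result was not tested.

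The other controls were both below scr. In untreated cells 51 of 59 members were below scr of set 2 (median log2 ratio -0.11, summed value 0.912 times that of scr), and with Luc 51 were below scr of set 3 (median -0.14, 0.898 times). These ratios compare 1 library with another and were not tested. Past 1.5-fold, *Hist1h2an* was above scr in untreated cells (1 of 58 members with a mean value of at least 10, against 1.1% of 13398 genes), and *Hist1h2ak* and *Hist1h2bj* were below (2 of 58, against 0.776%). With Luc, 0 of 58 were above (against 0.873% of 13285 genes) and *Hist2h3b* was below (1 of 58, against 0.715%). *Hist1h2bj* was 495 in untreated cells and 591 in 3p of set 2, while the other 10 libraries of sets 2 and 3 held 1093 to 1318. *Hist1h2ak* was 1280.1 in untreated cells and 2390.3 in scr of set 2, where SP, 3p and 5p held 1727, 1724 and 1680.4.

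No gene of histone transcription and 3′ processing was called in the SATS comparison. Of the 15 listed, 0 were called with or without the block and 7 were positive (median -0.03). *Slbp*, the stem-loop binding protein, had a log2 fold change of -0.14 (SE 0.09, limma adjusted p = 0.42 with the block), and *Npat*, the histone transcription coactivator, 0.16 (SE 0.10, adjusted p = 0.396). *Slbp* was 941 with SATS and 1009 with scr in set 2 and 892 and 1015 in set 3. With SP it was 846 and 715, a log2 fold change of -0.38 that missed the threshold (limma adjusted p = 0.0747 with the block).

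Of 28 genes of DNA replication and S phase, 1 was called in SATS with the block, against 2.64% of all genes, and 9 were positive (median -0.04). It was *Ccne2*, a cyclin of S phase entry, at 528 with SATS against 322 with scr in set 2 and 1099.9 against 400.2 in set 3 (log2 fold change 1.08, SE 0.14, limma adjusted p = 0.00795). With 5p and the block, 2 of the 28 were called, against 2.37% of all genes. *Ccne2* was higher (0.58, limma adjusted p = 0.0485) and the helicase loader gene *Cdc6* fell by 0.36 on the log2 scale (adjusted p = 0.0332). In the same comparison *Chaf1a*, a chaperone subunit that deposits H3 and H4, was called lower (1 of 14 chaperone genes, log2 fold change -0.34, limma adjusted p = 0.0476). The cleavage factor gene *Cpsf2* was also lower (1 of 15, -0.48, adjusted p = 0.00469), and the linker variant *H1f0* was higher (1 of 11 replication-independent histones, 0.55, adjusted p = 0.0207). These 3 genes were called in the same directions in 5p against 3p with the block, which shares the 5p libraries. Without the block 0 genes of any list were called with SATS, with 5p or in 5p against 3p.

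Of 12 genes of G2 and mitosis, 0 were called in SATS with the block (median 0.03), and of 14 chaperones 0 (median -0.02). All 11 genes listed as replication-independent histones had positive log2 fold changes with SATS (median 0.17), but 0 were called. *H3f3a*, an H3.3 gene, had the largest, 0.28 (SE 0.09, limma adjusted p = 0.127 with the block). Of 13 noncoding RNAs listed as having a form without a poly(A) tail, 8 were tested, and 5 were positive with SATS (median 0.47). The RNase MRP RNA *Rmrp* was called (1 of 8, 0.65, limma adjusted p = 0.0333 with the block), at 76325 with SATS against 53793 with scr in set 2 and 52386 against 30188 in set 3. The telomerase RNA *Terc* (0.55, adjusted p = 0.138) and the RNase P RNA *Rpph1* (0.49, adjusted p = 0.198) were positive and not called, and *Neat1* was negative (-0.40, adjusted p = 0.0919).

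Histone genes differed between sets 2 and 3 about as often as genes in general, and mostly in 1 direction. With the siRNA as a term, 28 members were lower and 5 higher in set 3 (limma adjusted p under 0.05), or 33 of 59 against 51.6% of 16490 genes (24.2% higher and 27.4% lower). The median log2 fold change was -0.17, beside -0.01 over all genes. Of the H1 genes 4 were lower and 0 higher, and of H4 genes 4 and 0. The members with the largest falls were *Hist3h2bb-ps* (-0.99), *Hist2h3b* (-0.92), *Hist1h2ai* (-0.82), *Hist1h2ag* (-0.81), *Hist1h2ac* (-0.81) and the testis variant *Hist1h2ba* (-0.80). *Hist2h3b* was 133, 149, 228, 230.0 and 309 with scr, SP, 3p, 5p and SATS in set 2, and 129, 69.1, 109, 94.8 and 143 in set 3. SATS of set 3 exceeded scr of set 2, so the sets overlapped, although each siRNA was lower in set 3 than in set 2. Higher in set 3 were *Hist1h2an* (0.39), *Hist1h3f* (0.30), *Hist1h2bj* (0.29), *Hist1h2ad* (0.28) and *Hist1h2ah* (0.23). Fibroblast markers differed between the sets too, with 5 of 6 lower in set 3 and a median of -1.75, and 8 of the 11 replication-independent histones were lower and 2 higher. Of the 15 genes of histone transcription and 3′ processing, 7 were higher and 1 lower. *Npat* was among the higher ones (limma adjusted p = 0.0164).

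Set 1 differed from sets 2 and 3 in single H2A, H2B, H3 and H4 genes. In the scr and SP libraries, 14 members were higher and 1 lower in set 1, or 15 of 59 against 16.5% of 15970 genes (6.83% higher and 9.7% lower). *Hist2h3b* was highest by log2 fold change (2.18, SE 0.30, limma adjusted p = 0.0126), at 556 in scr and 442, 431 and 628 in SP of set 1. *Hist1h2ai* followed (1.86), at 770.1 in scr and 653, 624 and 636 in SP, against 152 to 524 in the 12 other libraries. *Hist1h2bn* (1.64), *Hist1h4n* (1.62), *Hist1h2ab* (1.48) and *Hist1h3b* (1.33) came next. *Hist3h2a*, which shares 0.820% of its 75-base stretches and is overlapped by *Trim17* and *Gm44313*, was lower (-0.71, adjusted p = 0.0249), at 1018 to 1337 in set 1 and 1611 to 2546 elsewhere. No H1 gene was called, and all 6 were positive.

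The set 1 count moved when single libraries were left out. It was 7 without scr of set 2, 26 without SP of set 2 and 23 without SP 1c. Leaving out scr or SP of set 1 left 1 sample for that set, so no count is given. The shares of all genes called in these fits are not given here, so whether the count of all genes moved alike was not tested. Over the 20 members with over 50% of 75-base stretches shared, the median log2 fold change of set 1 was 0.49 and 8 were called higher. Over the other 39 the median was 0.14, with 6 higher and 1 lower. Across the 59 the Spearman correlation of share and fold change was 0.29, and the points share libraries and family sequence. The part of shared stretches in the set difference was not tested, and which libraries were read paired-end and which single-end was not stated. Read depth, *Rn45s* share, *Lars2* and set cannot be told apart here. The 6 members with the largest rise in set 1 were also above scr in 3p, 5p and SATS of set 2. So were 56, 54 and 51 of all 59 members in these libraries. A link to *Lars2*, which was high there, was not tested. *Hist1h2ai* was 524, 348 and 375 there, and 157 in scr, 296 in SP and 152 in untreated cells. *Hist1h4n* was 521, 676 and 597 against 291 in scr. Of the 8 noncoding RNAs tested, *Neat1*, *Rnu12*, *Terc* and *Malat1* were called higher in set 1, and all 8 were positive (median 1.05).

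**Figure D5:**
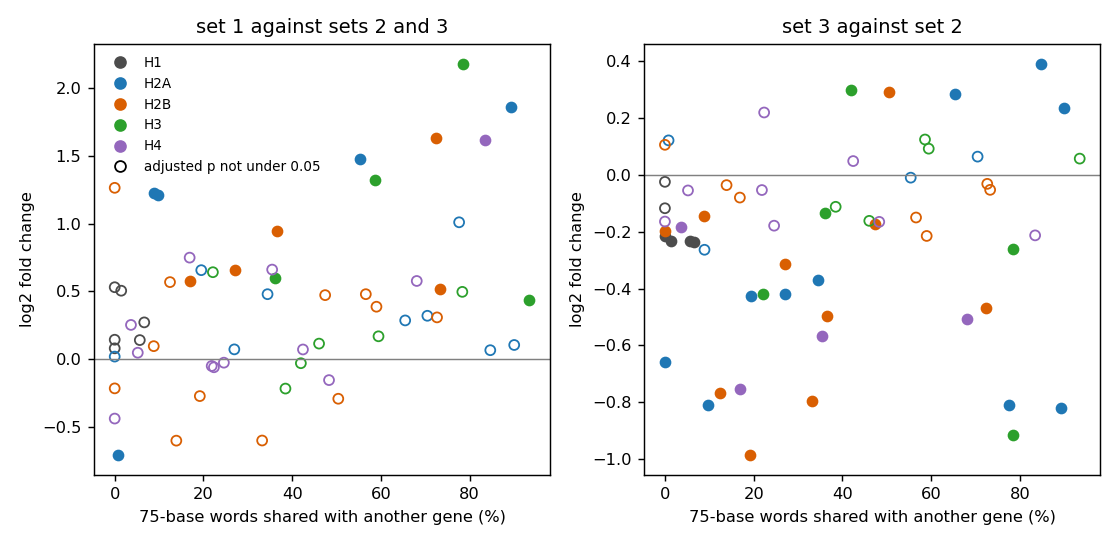
Log2 fold change of each histone gene in set 1 against sets 2 and 3 (left) and in set 3 against set 2 (right), against the share of its 75-base stretches found in a gene elsewhere. Filled points have an adjusted p under 0.05. In set 1, 8 of the 20 members with over 50% shared and 6 of the other 39 were higher, against 6.83% of all genes. In set 3, 6 of the 20 and 22 of the 39 were lower, against 27.4% of all genes.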

How the data were processed

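RNA from mouse ES cells was rRNA-depleted, made into directional libraries and sequenced as 75-base paired-end or single-end reads. Which libraries were paired was not given in the sources used here, and a strand setting was stated for paired-end libraries only. The authors aligned with HISAT2 to mm10, counted with featureCounts and deposited a signal per gene: its reads divided by a DESeq2 (1.14.1) size factor, for genes whose values sum to 10 or more. Whole reads were recovered from 100% of these values (tolerance 0.001). Libraries from 2i medium and a separate CPM table of set 1 were not used here.

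Members and gene lists were chosen with earlier results of these data known. Members and other genes were tested by limma 3.58.1 (R 4.3.3) on log2(value + 1), with a trended prior, over all genes whose values over the fitted libraries sum to 10 or more, with Benjamini-Hochberg adjustment at 0.05. SP 1a to 1c were averaged. In sets 2 and 3 all siRNA groups shared 1 estimate of the spread. Samples of a set deviated together (r = 0.80, 0.82 and 0.77 over 11057 genes in sets 1, 2 and 3 for SP, and 0.81 to 0.93 in the other panel), so fits with the set as a replicate block are given beside those without it. edgeR 4.0.16 and DESeq2 1.42.0 on the recovered reads, other scalings, pseudocounts, filters and leaving out libraries were the alternatives. Simulated data were used to test the fits. Untreated and Luc libraries were compared with scr as ratios past 1.5-fold, without a test. Named members were the 3 highest of each type by mean value in sets 2 and 3 and those called, at most 6 in a direction. Named other genes were *Stag1*, *Slbp*, *Npat* and called genes of the lists, at most 3 a list. *Hist1h2an*, the flanking *Hist1h3c* and *Hist1h4b*, *Hist2h2be*, *Hist1h1t*, *H3f3a*, *Terc*, *Rpph1*, *Neat1*, *Lars2*, *Cdx2* and *Eomes* were named after their values were seen.

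Annotation came from GENCODE M21 (GRCm38), where all 59 members matched, and promoters from RefSeq. Intervals and floors cover counting error only.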

Additional observations from a re-analysis of the deposited data

Results flagged for a closer look

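*Hist1h2be*, an H2B gene of the Hist1 cluster, had 1 library far from the others among the 5 SP libraries. Its value was 1819 in SP 1a, while the next highest library was at 1467 and the lowest at 1345. The gap was above the critical value of Dixon's test for 5 samples (0.71). Of 35 groups of this size checked, 1 passed it, and chance gives about 1 in 20. A read was worth a value of 4.70 in that library.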

How the results depend on the processing

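Counts of called histone genes with SP, 3p, 5p and in 5p against 3p were 0 under other pseudocounts, filters, scalings and controls, by edgeR and DESeq2, and without each library in turn. For 5p against 3p, 1 member was called with the replicate block and scaling to reads outside *Rn45s* and *Lars2*, an alternative chosen after seeing the data. With SATS siRNA the count was 0 without the replicate block under each scaling, filter, pseudocount and tool, and 4 with the block by limma and 5 by edgeR with the block. The added settings with the block, chosen after seeing the data, gave 4 (scaling to reads outside *Rn45s* and *Lars2*) and 5 (TMM scaling). The genes of the other lists called with SATS, with 5p or in 5p against 3p were called with the block and not without it, and the block changed no call of a histone gene with SP, 3p or 5p. For set 3 against set 2, 33 members became 20 with no filter and 19 by limma without trend. For set 1 against sets 2 and 3, 15 members became 9 with no filter and 5 without trend, and leaving out 1 library gave 0 to 26. Untreated cells had 1 member above 1.5-fold, and 0 with a pseudocount of 10. Shares of all genes called under these other settings, edgeR and TMM scaling with the block among them, are not given here. Whether the counts of histone genes moved alike with those of all genes was not tested, nor were the causes. The summed H2A ratio with 5p moved to 0.07 on the log2 scale when scaled to reads outside *Rn45s* and *Lars2*. Over calls, summed values and medians, 868 values were unchanged, 196 were weaker, 16 stronger and 1 moved, and 0 reversed. Unchanged meant keeping the side of the threshold for calls, and a shift under 1 SD for summed values and medians. Set 1 has few histone reads, and shared sequence limits values of single copies.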
